A study of Mus musculus with 6 samples.

Results

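The genes described here encode 36 nucleolar and nucleoplasmic assembly factors of the large (60S) ribosomal subunit, taken as a named list of pre-60S factors and measured in RNA of GC-2spd cells. All 36 were found by symbol among 43412 annotated genes, and all 36 passed the expression filter that left 13749 genes for testing, a mean TPM (a level scaled for transcript length and library size) of at least 1. The GC-2spd line was established from the testis of mice and is used as a model of meiotic male germ cells. Poly(A) RNA of 6 libraries was sequenced, 3 from normoxic cells kept at 21% O2 and 3 from hypoxia-treated cells kept at 1% O2, with the same medium, serum and antibiotics in both groups. The labels give no duration of the treatment for these libraries, although the study's methods give one for its hypoxia model, and do not say whether they came from separate cultures, so a p-value measures only the spread between these samples, which may be technical. One cell line was used, and the comparison asks how its transcripts differed between the oxygen levels.

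Ribosome assembly starts in the nucleolus, where RNA polymerase I makes a long precursor that holds the rRNAs of both subunits. Assembly factors fold, cut and methylate this precursor while ribosomal proteins are added, and large AAA ATPases later strip factors from the particle so that it can leave the nucleus. The factors act on the particle in turn and are not part of the mature ribosome. Their genes are known for high activity in growing cells.

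As a whole, the group was lower in hypoxia-treated GC-2spd cells. Summed over the 36 genes, TPM was 1563, 1536 and 1513 in the normoxic libraries and 1039, 1053 and 1057 in the hypoxic libraries. The sum averaged 1538 ± 24.9 (SD, n = 3) in normoxia and 1049.7 ± 9.70 (SD, n = 3) in hypoxia, which is 31.7% lower. Of the 36 genes, 31 were lower at an adjusted p under 0.05 (limma on log2(TPM + 1), 2-sided, Benjamini-Hochberg over all genes tested) and 0 were higher. Among all genes tested, 36.1% were lower by the same call and 17.9% were higher. A fall of at least 2-fold in TPM + 1 was called for 7 members, against 5.33% of all genes. The median log2 fold change was −0.58 over the members and −0.13 over all genes tested. The values of the 3 hypoxic libraries lay below those of the 3 normoxic libraries, with no overlap, for 32 of the 36 members, as they did for 41% of all genes. When the libraries were rescaled so that the median gene did not move, 26 members were lower and 1 (Pes1) was higher by median-ratio scaling, and 27 were lower and 0 higher by quantile normalization. Under these scalings 26.3% and 26.5% of all genes were lower, and 26.2% and 26% higher. In poly(A) RNA of a whole culture, fewer cells of a type and less RNA per cell cannot be told apart.

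**Figure D1:**
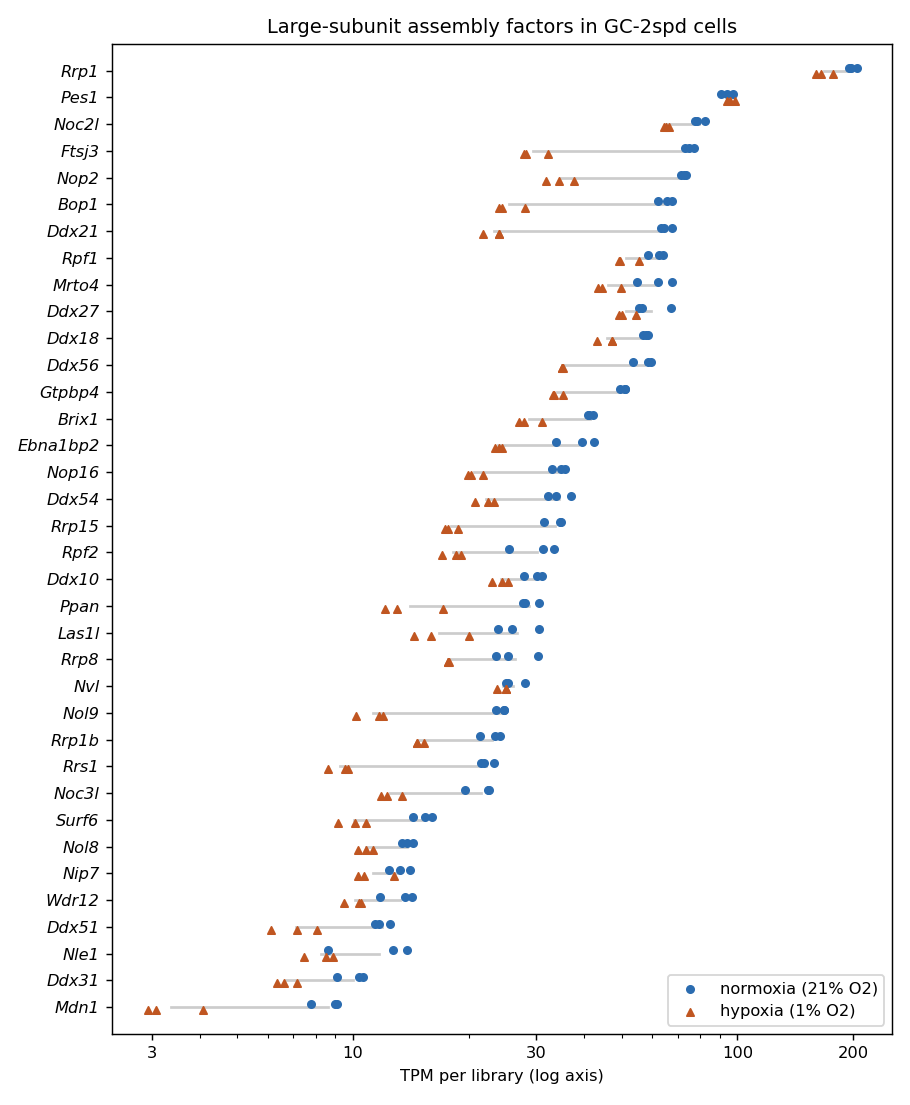
Level of each assembly factor in TPM (log axis) in the 3 normoxic and 3 hypoxic libraries, 1 point for each library. The hypoxic points lie below the normoxic points for 32 of the 36 genes, and overlap for Pes1, Nvl, Nle1 and Nip7.

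Library size was similar across groups, while several other measures moved with treatment. The files point to 5.75 to 6.61 gigabases of aligned sequence in normoxic libraries and 5.80 to 6.72 in hypoxic libraries. Mitochondrial genes held 9.25% to 9.29% of annotated TPM in normoxia and 5.49% to 5.59% in hypoxia. All 10 genes of a list of known hypoxia-induced genes were higher in hypoxia. Germ cell markers (10 genes) never exceeded 0.604 TPM and 6 of them were at 0 in every library, and spermatid markers (8 genes) never exceeded 0.910 TPM with 4 at 0, so these genes do not bear out the germ cell origin of the line. Fibroblast markers summed to 3305 to 4263 TPM in normoxia and 6854 to 7068 TPM in hypoxia, with Thy1 at 0 in every library. Of the 7 fibroblast markers tested, Vim (1601 and 4053 TPM in normoxia and hypoxia) and Col1a1 (1161 and 1719.6 TPM) were higher in hypoxia, Pdgfra (5.02 and 1.54 TPM) and Pdgfrb (6.62 and 1.45 TPM) were lower and 3 were not called. Sertoli cell markers summed to 42.4 to 54.0 TPM in normoxia and 44.7 to 56.4 TPM in hypoxia, Leydig cell markers to 3.61 to 6.88 and 7.17 to 10.6, macrophage markers (4 of 6 at 0) to 7.20 to 8.11 and 10.5 to 11.5, and endothelial markers to 0.960 to 2.27 and 0.294 to 1.51. The part of any of these in the results below was not tested.

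RefSeq start-site windows (GRCm38.p6, which shares the coordinates of the mm10 build of the files), 250 bases before to 50 bases after a gene's start, were found for 33 of the 36 members and not for Bop1, Rpf1 and Rrs1. Shown first are the 100 bases ahead of the start of Ddx21, Ftsj3 and Nop2, the members with a window that are the largest fallers among the helicases and among the methyltransferases. Capitals mark CACGTG, the E-box that MYC-MAX binds, and CCGGAAG, the core of ETS-family sites. Only the Nop2 stretch holds either in full, and shorter or looser forms of the ETS-family site were not marked.
Ddx21, chr10:62602299-62602398, minus strand: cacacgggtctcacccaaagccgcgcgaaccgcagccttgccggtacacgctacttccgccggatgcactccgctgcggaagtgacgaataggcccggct
Ftsj3, chr11:106256085-106256184, minus strand: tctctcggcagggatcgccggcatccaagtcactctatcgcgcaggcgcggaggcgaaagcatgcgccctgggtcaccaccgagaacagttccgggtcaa
Nop2, chr6:125131783-125131882, plus strand: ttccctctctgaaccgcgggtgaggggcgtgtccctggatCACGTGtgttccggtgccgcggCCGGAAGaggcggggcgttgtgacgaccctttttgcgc

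An E-box lay within the window of 5 members, Mdn1, Nle1, Nop2, Pes1 and Rpf2, and the 4 other than Nop2 are shown with it in capitals, because they span the range from a called 61.0% fall (Mdn1) to no call (Pes1 and Nle1).
Mdn1, chr4:32657145-32657168, plus strand: gaattccttcacCACGTGtgtgtc
Nle1, chr11:82908355-82908384, minus strand: tcggttctcctcCACGTGgggacgcaggat
Pes1, chr11:3963965-3963994, plus strand: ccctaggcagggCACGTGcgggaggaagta
Rpf2, chr10:40246988-40247017, minus strand: aagtaatcggtaCACGTGcattcgctaagg

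Searched on both strands, the E-box was in 15.2% of the 33 members and in 11.9% of the 9193 tested genes with a window. ACGTG, the core that HIF binds and which every E-box of this kind contains, was in 42.4% of members and 29.6% of tested genes. CCGGAAG, the ETS-family form searched for, was in 15 members (45.5%), against 21.5% of tested genes. GGGCGG, the GC box, was in 75.8% and 70.7%, and TATAAA, the TATA box, in 6.06% and 8.10%. A match is a description of letters in a window and says nothing about binding.

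The rRNA methyltransferases had the lowest median of the role groups, −1.05, and all 3 were lower. Ftsj3, a 2′-O-methyltransferase of the large-subunit rRNA, stood at 76.9, 73.0 and 75.1 TPM in normoxic libraries and 28.2, 32.2 and 27.9 TPM in hypoxic libraries. All hypoxic values were under 0.5 of the lowest normoxic value. Its level was 75.0 ± 1.98 TPM in normoxia and 29.4 ± 2.40 TPM in hypoxia (SD, n = 3), a log2 fold change of −1.32 (SE 0.07, adjusted p = 1.73e-05). Nop2, an m5C methyltransferase of the large-subunit rRNA, was at 72.6, 71.3 and 73.5 TPM in normoxia and 31.8, 34.3 and 37.6 TPM in hypoxia, with no overlap and a log2 fold change of −1.05 (SE 0.07, adjusted p = 4.06e-05). Rrp8, an m1A methyltransferase, was at 23.6, 25.3 and 30.2 TPM and at 17.8, 17.7 and 17.6 TPM, a log2 fold change of −0.54 (SE 0.09, adjusted p = 0.00277). Rrp8 shares 355 exonic bases, 9.98% of its exons, with Ilk on the opposite strand, which averaged 156 TPM in normoxia and 122 TPM in hypoxia. The use of strand in counting is not given in the sources used here, so the Rrp8 value is uncertain. Where an assembled locus replaced each annotated gene, Ftsj3 had a log2 fold change of 1.64 (adjusted p = 0.559). In that fit the libraries of both groups disagreed: no locus on the strand of Ftsj3 was assembled in normoxia replicate 1 (0 TPM), and in hypoxia replicate 3 the locus (chr11:106216926-106263120) also spanned Ddx42 and Psmc5 and stood at 176 TPM.

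**Figure D2:**
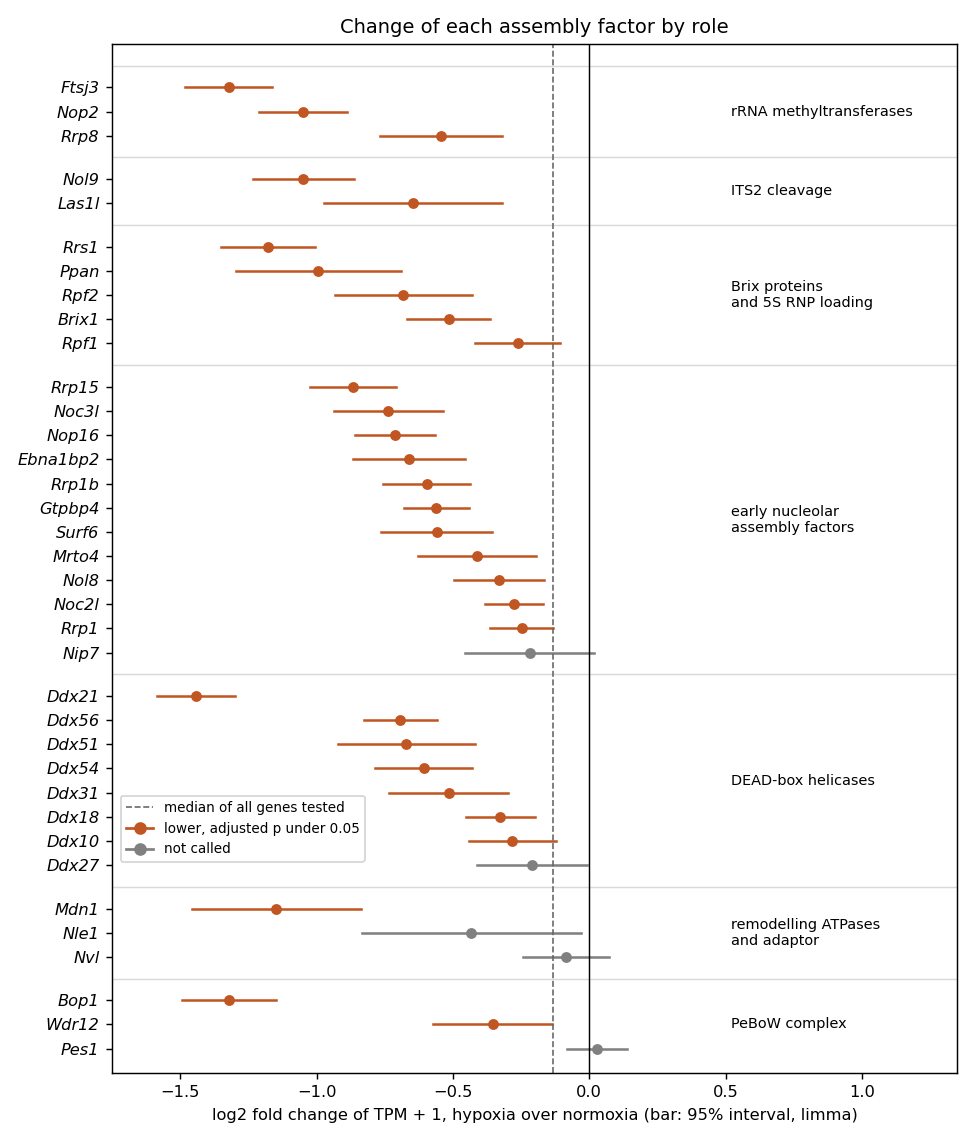
Log2 fold change of TPM + 1, hypoxia over normoxia, of each assembly factor with its 95% interval from limma, grouped by role, with members lower at an adjusted p under 0.05 in orange and the 5 others in grey. Ddx21, Ftsj3 and Bop1 lie furthest to the left, and Pes1 is the only point right of 0 as deposited, and left of it on FPKM and without mitochondrial genes.

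Members that cut the second internal transcribed spacer were lower, with a median of −0.85 over the 2. Nol9, the polynucleotide kinase of the complex, was at 24.7, 23.6 and 24.6 TPM in normoxia and 10.2, 11.96 and 11.7 TPM in hypoxia. Its log2 fold change was −1.05 (SE 0.08, adjusted p = 6.90e-05), a fall of 53.7% in the mean level. Las1l, the endonuclease partner, was at 23.9, 30.4 and 25.9 TPM and at 15.97, 20.02 and 14.4 TPM, a log2 fold change of −0.65 (SE 0.14, adjusted p = 0.00684). The values of each gene did not overlap between groups. Within a library, the ratio of Nol9 to Las1l TPM was 0.921 ± 0.132 in normoxia and 0.682 ± 0.115 in hypoxia (SD, n = 3), with p = 0.2 by a 2-sided exact permutation test, in a design that cannot go below 0.1.

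The PeBoW complex, a trimer of Pes1, Bop1 and Wdr12 needed for pre-rRNA cutting, had members that moved differently. Pes1, its BRCT-domain member, stood at 97.6, 94.1 and 90.8 TPM in normoxia and 95.4, 98.6 and 93.9 TPM in hypoxia, with the ranges overlapping. Pes1 was not called as deposited (log2 fold change 0.03, SE 0.05, adjusted p = 0.645), with an interval of 0.945 to 1.10 for the ratio of TPM + 1. It was higher by median-ratio scaling (0.17, adjusted p = 0.0206), and its sign turned on FPKM (−0.024) and without mitochondrial genes (−0.0056). Bop1, the WD-repeat member, was at 67.5, 65.8 and 62.0 TPM and at 28.0, 24.4 and 24.0 TPM. The lowest normoxic Bop1 value was thus over 2-fold the highest hypoxic one, and the log2 fold change was −1.32 (SE 0.07, adjusted p = 2.25e-05). Wdr12 was at 14.2, 13.7 and 11.8 TPM and at 10.5, 9.46 and 10.4 TPM, with no overlap and a log2 fold change of −0.35 (SE 0.09, adjusted p = 0.0158). Its call was lost by both scalings (adjusted p = 0.0854 and 0.225) and without normoxia replicate 1, normoxia replicate 2 or hypoxia replicate 2 (adjusted p = 0.0537, 0.0509 and 0.0516).

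Ratios within a library do not change when the library is multiplied by 1 factor, although quantile normalization can change them, and the members of the complex were also set against Pes1. The Bop1 to Pes1 ratio was 0.692, 0.699 and 0.683 in normoxic libraries and 0.293, 0.248 and 0.256 in hypoxic libraries. It averaged 0.691 ± 0.00803 and 0.266 ± 0.0242 (SD, n = 3). The Wdr12 to Pes1 ratio averaged 0.140 ± 0.00918 and 0.106 ± 0.00835, also without overlap. Each had p = 0.1 by the 2-sided exact permutation test, the smallest that 3 against 3 libraries allow, and 0.15 after Benjamini-Hochberg adjustment over the 3 ratios compared.

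**Figure D3:**
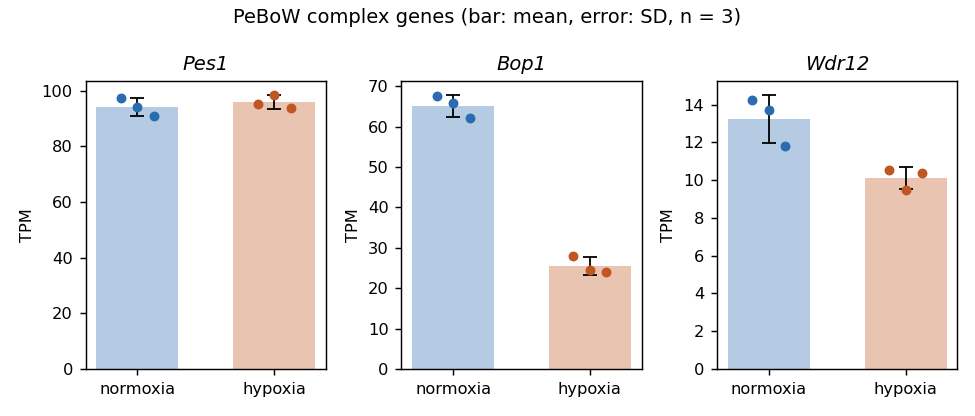
Level in TPM of the 3 PeBoW members by group, with points for libraries, bars for the mean and error bars for the SD (n = 3), each axis from 0. Pes1 overlaps between groups, Bop1 goes from 65.1 to 25.5 TPM and Wdr12 from 13.2 to 10.1 TPM.

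All 5 Brix-domain proteins and loaders of the 5S RNP were lower, with a median of −0.68, and 4 of the 5 kept that call under both scalings. Rrs1, which with Rpf2 brings the 5S RNP into the particle, was at 21.5, 23.3 and 21.9 TPM in normoxia and 9.54, 8.61 and 9.68 TPM in hypoxia, a log2 fold change of −1.18 (SE 0.07, adjusted p = 3.61e-05). Rpf2 was at 33.3, 31.3 and 25.5 TPM and at 18.6, 19.1 and 17.1 TPM, a log2 fold change of −0.68 (SE 0.11, adjusted p = 0.00172). Neither gene overlapped between groups, and the level of Rrs1 fell by a larger share than that of Rpf2 (58.3% and 39.2%), a difference that was not tested. Ppan, a Brix-domain protein, was at 28.1, 27.6 and 30.6 TPM and at 12.1, 17.2 and 13.0 TPM, with a log2 fold change of −0.99 (SE 0.13, adjusted p = 0.0007). Ppan hosts 2 snoRNA genes on its own strand. Brix1 was at 40.8, 42.0 and 41.2 TPM and at 27.9, 31.0 and 27.1 TPM, a log2 fold change of −0.52 (SE 0.06, adjusted p = 0.000639). Rpf1 had the smallest difference, −0.26 (adjusted p = 0.0134), and was not called under either scaling (adjusted p = 0.127 and 0.0548).

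Of the remodelling ATPases and their adaptor, only Mdn1 passed the test. Mdn1, the giant dynein-like AAA ATPase, was at 9.07, 9.001 and 7.76 TPM in normoxia and 4.08, 3.07 and 2.92 TPM in hypoxia, a log2 fold change of −1.15 (SE 0.13, adjusted p = 0.000433). It had the lowest level of the 36 in both groups. The assembler built Mdn1 as 1 locus in each normoxic library and in 3, 3 and 5 pieces in the hypoxic ones. Summed over these loci, Mdn1 stood at 9.08, 9.002 and 9.12 TPM in normoxia and 5.83, 7.75 and 10.3 TPM in hypoxia. These sums overlapped, with a log2 ratio of the means of −0.17. As TPM is scaled for length, a sum over pieces of 1 gene can rise with their number and does not measure the fall. The highest single piece stood at 2.12, 4.72 and 3.52 TPM in the hypoxic libraries. With the locus of largest overlap in place of the annotated gene, the Mdn1 log2 fold change was −1.22 (limma, adjusted p = 0.017). Nle1, the adaptor through which Mdn1 is held on the particle, was at 13.8, 12.7 and 8.63 TPM and at 8.87, 8.53 and 7.45 TPM. Normoxia replicate 3 lay within the hypoxic range, and Nle1 was not called (log2 fold change −0.43, adjusted p = 0.0669). Without that library the difference was −0.62 with an adjusted p of 0.00538. Nvl, the AAA ATPase that releases Wdr74 from the particle, was at 28.1, 25.3 and 25.0 TPM and at 23.7, 25.0 and 25.0 TPM, with overlap and a log2 fold change of −0.08 (adjusted p = 0.318), and its sign turned by median-ratio scaling (0.057) and quantile normalization (0.088). Nvl shares 1137 exonic bases, 8.43% of its exons, with the pseudogene Fgfr3-ps on the opposite strand. Fgfr3-ps averaged 5.60 TPM in normoxia and 2.90 TPM in hypoxia, so the Nvl value is uncertain in the way given for Rrp8.

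Early nucleolar assembly factors formed the largest role group, and 11 of 12 were lower, with a median of −0.56. Rrp15 was at 34.5, 31.4 and 34.7 TPM in normoxia and 17.7, 17.4 and 18.8 TPM in hypoxia, a log2 fold change of −0.87 (SE 0.07, adjusted p = 8.06e-05). Nop16 was at 34.7, 33.0 and 35.6 TPM and at 20.2, 21.8 and 19.9 TPM, a log2 fold change of −0.71 (SE 0.06, adjusted p = 0.00014). In both genes the spread within a group was small beside the gap between groups. The GTPase Gtpbp4 was at 51.0, 49.4 and 51.1 TPM and at 33.1, 33.3 and 35.3 TPM, a log2 fold change of −0.56 (SE 0.05, adjusted p = 0.000154). Rrp1b, a relative of Rrp1, was at 24.2, 23.4 and 21.5 TPM and at 15.3, 14.6 and 14.6 TPM, a log2 fold change of −0.60 (SE 0.07, adjusted p = 0.000425). Gtpbp4 and Mrto4 have processed pseudogenes that carry their names, so reads may be shared between copies and their values are uncertain.

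Among the other early factors the differences reached from −0.74 to −0.22. Noc3l fell by 41.9% of its mean level and Noc2l by 17.7%. Both are NOC-family proteins that accompany early particles. Noc2l shares 598 exonic bases, 20.9% of its exons, with Samd11 on the opposite strand, which averaged 4.40 TPM in normoxia and 3.26 TPM in hypoxia. The Noc2l value is thus uncertain in the way given for Rrp8. Ebna1bp2 had a log2 fold change of −0.66, Surf6 one of −0.56, Mrto4 one of −0.41 and Nol8 one of −0.33. Rrp1 had the highest level of all members in both groups, 199 ± 4.95 TPM and 168 ± 8.72 TPM (SD, n = 3), and a log2 fold change of −0.25 (adjusted p = 0.00497). Rrp1 and Mrto4 were not called by median-ratio scaling (adjusted p = 0.0804 and 0.0675), nor Nol8 by quantile normalization (adjusted p = 0.149). Nip7, which binds the pre-60S rRNA, was at 14.1, 12.4 and 13.3 TPM and at 10.7, 10.3 and 12.8 TPM. Hypoxia replicate 3 overlapped the normoxic range, and Nip7 was not called (−0.22, adjusted p = 0.104), while without that library it was (−0.31, adjusted p = 0.0284).

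DEAD-box helicases, which unwind rRNA and detach snoRNAs, were lower in 7 of 8 cases with a median of −0.56. Ddx21, a nucleolar helicase tied to rRNA transcription and processing, was at 67.5, 64.3 and 63.2 TPM in normoxia and 24.0, 24.0 and 21.8 TPM in hypoxia. No other member had a larger log2 fold change, at −1.44 (SE 0.06, adjusted p = 8.24e-06), and its rank by level among the 36 went from 7 to 17. Ddx56 was at 59.6, 58.7 and 53.6 TPM and at 35.1, 34.96 and 35.1 TPM, with a log2 fold change of −0.69 (SE 0.06, adjusted p = 0.000101). Ddx54 was at 33.8, 32.1 and 37.0 TPM and at 20.8, 23.3 and 22.4 TPM, with a log2 fold change of −0.61 (SE 0.07, adjusted p = 0.000608). Ddx51 was at 11.7, 12.5 and 11.4 TPM and at 6.14, 7.17 and 8.05 TPM, with a log2 fold change of −0.67 (SE 0.11, adjusted p = 0.00178). None of these genes overlapped between groups. Ddx54 shares 869 exonic bases, 14.2% of its exons, with Gm43579 on the opposite strand, so its value is uncertain in the way given for Rrp8. Ddx31 differed by −0.52, Ddx18 by −0.33 and Ddx10 by −0.28, and the Ddx10 call was lost by both scalings (adjusted p = 0.0996 and 0.163). Ddx27 was at 67.1, 55.6 and 56.4 TPM and at 54.6, 50.0 and 49.3 TPM, without overlap but not called (−0.21, adjusted p = 0.0742). The Ddx27 call was made on FPKM (adjusted p = 0.0356) and without mitochondrial genes (adjusted p = 0.0498).

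By level in TPM, the order of the members changed with treatment. Rrp1, Pes1 and Noc2l held ranks 1, 2 and 3 in both groups. Ftsj3 went from rank 4 to 11, Bop1 from 6 to 13 and Nop2 from 5 to 9, while Rpf1 went from 8 to 4 and Ddx27 from 10 to 5. In normoxia Bop1 (65.1 ± 2.80 TPM) and Ddx21 (65.0 ± 2.24 TPM, SD, n = 3) did not differ beyond their spread. Across the 36 members, fold change had a Pearson r of 0.028 with log2 level and of 0.10 with log2 span of the gene, where all points come from the same libraries.

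The 36 genes lie on 16 chromosomes. A tested protein-coding gene that starts on the other strand, up to 1000 bases ahead of the member's start, flanks 11 members. Of the 12 such neighbours, 5 were called lower (41.7%, near the 36.1% of all genes) and 0 higher. Genes that start inside a member were not counted. Ftsj3 and Psmc5, a proteasome ATPase, start 75 bases apart, and Psmc5 went from 187 to 108 TPM (log2 fold change −0.79, adjusted p = 3.88e-05). Mrto4 lies by Emc1 and Ubr4, at 11 and 33 bases, and neither neighbour was called (0.02 and 0.08). Nop16, at −0.71, starts 117 bases from Higd2a, which differed by −0.06 (adjusted p = 0.609). A called member did not always have a called neighbour.

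The other genes of ribosome assembly were counted from lists drawn up for the same pathway. Of 39 other large-subunit assembly and export factors, 26 were lower and 4 higher, with a median of −0.48. Among all genes tested, 36.1% were lower and 17.9% higher. Heatr3, which brings ribosomal proteins to the nucleus, had a log2 fold change of −1.26, Nifk, an rRNA-processing factor, one of −0.93, Cebpz, a NOC-like protein, one of −0.80 and Eif6, which keeps the subunits apart, one of −0.77. The higher ones were Sdad1 (0.51), Sbds, which removes Eif6 in the cytoplasm (0.45), Nop53 (0.28) and Zfp622 (0.22). By median-ratio scaling and by quantile normalization alike, 23 of the 39 were lower and 5 higher. Of 50 tested small-subunit factors, 42 were lower and 1 (Ddx47, 0.27) was higher, with a median of −0.52. Bysl was at −1.64, Tsr1 at −1.56, Heatr1 at −1.34 and Rcl1 at −1.09. By median-ratio scaling 36 of the 50 were lower and 1 higher, and by quantile normalization 37 and 1. The 47 large-subunit ribosomal proteins had 0 lower and 33 higher, with a median of 0.22, which became 37 higher (median 0.37) by median-ratio scaling and 13 higher (median 0.06) by quantile normalization. Over all genes 26.3% and 26.5% were lower under these scalings, and 26.2% and 26% higher. By quantile normalization 27.7% of the ribosomal protein genes were higher, near the share of all genes. Rplp0 (0.33), Rpl6 (0.29) and Rpl32 (0.28) were among those with the smallest adjusted p. Ribosomal protein genes share reads with many processed copies, so their values are uncertain.

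**Figure D4:**
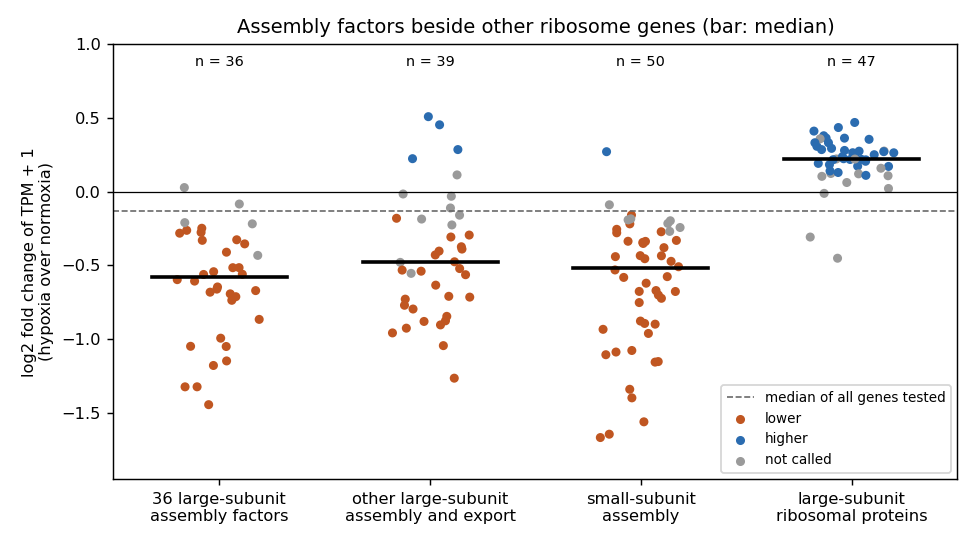
Log2 fold change of TPM + 1, hypoxia over normoxia, for each gene of the members and of the other pathway lists, 1 point for each gene and a bar for the median, with genes called lower in orange, called higher in blue and the others in grey. Medians are −0.58 for the members, −0.48 for the other large-subunit factors, −0.52 for the small-subunit factors and 0.22 for the large-subunit ribosomal proteins, the last one 0.06 by quantile normalization.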

How the data were processed

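The authors filtered reads with Cutadapt, aligned them to mm10 with HISAT2 and quantified genes with StringTie, whose versions and annotation release are not given in the sources used here. The deposited coverage is read depth over a gene, not scaled for library size, and was used only for depth. The deposited FPKM served as an alternative. In the deposited TPM columns, annotated genes stand beside loci assembled from the reads. Only annotated genes were tested, without rescaling, although an ordinary TPM table had been assumed. The study's methods name edgeR without saying what values went in. No counts were used here, so limma took its place and no counting interval was calculated.

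Gene IDs were matched to GENCODE mouse release M21 symbols (42442 of 43412 genes) and TPM was summed per symbol. The test ran on log2(TPM + 1) of all genes whose mean TPM reached 1, in limma 3.58.1 under R 4.3.3 (empirical Bayes with a variance trend, 2-sided, Benjamini-Hochberg, threshold 0.05). A pseudocount of 1 understates the change of low genes. The limma fit was tested on simulated data. The members, lists and tests were chosen with earlier results of these data known. For each role group, the members with the smallest adjusted p, up to 4, and those not called are given by library, and up to 4 genes per direction are named from each other list, apart from 1 ribosomal protein gene that is not reported here. Of these lists, 1 small-subunit gene was not matched. Alternatives were another pseudocount, filters, FPKM, 2 scalings, removal of mitochondrial genes, no variance trend, a replicate block and leaving out each library. A fit on assembled loci was added after seeing the data.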

Additional observations from a re-analysis of the deposited data

How the results depend on the processing

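Over 15 other settings, 516 of 540 member values kept their direction and their side of the threshold, 12 lost the call, 8 gained one and 4 turned sign. Of the 31 members called lower, 25 were so called under all 15, and the other 6 were Wdr12, Rpf1, Rrp1, Nol8, Mrto4 and Ddx10. The count called lower was 30 to 32 when 1 library was left out. Over all genes it was then 4287 to 4798, of 13730 to 13764 tested. Median-ratio scaling gave 26 lower and 1 higher with a median of −0.44, and quantile normalization 27 lower with a median of −0.42. Both moved the median of all genes from −0.13 to 0.00 and the higher share of all calls from 33.1% to 49.9% and 49.6%. The sign turned for Pes1 on FPKM (−0.024) and without mitochondrial genes (−0.0056), and for Nvl by median-ratio scaling (0.057) and quantile normalization (0.088); the cause was not tested. Same-numbered libraries did not deviate together (r = 0.0259, 0.0333 and 0.0109), which cannot show whether they were handled as pairs. The labels do not say, and a replicate block called 33 members lower, adding Nle1 and Ddx27. With this block, 4674 of all 13749 genes tested were lower. Of all 16212 genes in the fit on assembled loci, chosen after seeing the data, 3553 were lower and 1815 higher, with a median of −0.12. In that fit, 21 members were lower and 0 higher with a median of −0.57. It turned Ftsj3 (1.64) and Nvl (0.14) and lost the calls of 9 others, which stayed lower: Nop16 (−2.31), Nol9 (−1.88), Nop2 (−1.62), Ddx31 (−0.88), Las1l (−0.64), Rpf2 (−0.58), Wdr12 (−0.44), Noc2l (−0.28) and Mrto4 (−0.07). Some of these values do not measure the named gene alone. The Nop16 and Nop2 loci held Higd2a and Chd4 in at least 1 library. In normoxia the Nop16 loci stood at 34.7, 173 and 199 TPM, and the Nop2 loci at 241, 71.3 and 73.5 TPM. Rrp8 kept its call (−2.47) on loci that held Ilk and Taf10, at 79.9, 152 and 111 TPM in normoxia. Annotated genes were kept, because the loci of 13 members overlapped another expressed gene in at least 1 library. Las1l and Nol9 lost their calls with no such overlap. The Nol9 loci stood at 1.33 TPM in hypoxia replicate 2, against 10.3 and 12.1 TPM in hypoxia replicates 1 and 3. The cause of the lost Las1l call was not tested. Depth is known only as aligned bases, and 3 libraries a group limit the precision.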
